A study of Mus musculus with 16 samples.

Results

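The genes described here are 10 trophic factors, proteins that support glia and repair in white matter: Igf1, Pdgfa, Fgf1, Fgf2, Cntf, Lif, Osm, Hbegf, Inhba and Csf1. They were taken from a list of names, and all array probes whose accession matched one of these genes were used. The list was chosen with earlier results of these data known, so its counts and medians beside all genes are descriptions. Of the 18737 gene names on the array, 9 were members of this list, read by 14 of the 41153 probes. No probe matched Lif. Their RNA was measured in the corpus callosum, the large fibre tract between the hemispheres, of male wild-type C57BL/6 mice that entered the experiments at 7 to 8 weeks of age. Untreated mice were matched in age to the group of 4 weeks of CPZ, so the groups can differ in age at the time the RNA was taken.

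The mice ate chow mixed with cuprizone (CPZ), at 0.2% in the study's methods and 0.2 to 0.4% in the labels. RNA of 1 tissue sample was put on each of 16 single-colour Agilent arrays. There were 3 arrays of untreated mice on normal diet, 3 arrays after 2 weeks of CPZ and 4 arrays after 4 weeks of CPZ, all of which form the demyelination series. A further 6 arrays came from mice returned to regular diet after 4 weeks of CPZ. The methods give 2 days and 14 days of regular diet, but no label separates the arrays of these times, so the 6 arrays form 1 group and its spread includes any difference between them. The methods count 3 to 6 mice a condition and a legend gives 3 for each of the 2 regular diet times, which fits the array numbers, but no label ties an array to a mouse or to a time. P-values measure only the spread between arrays.

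CPZ is a copper chelator that kills mature oligodendrocytes, and the corpus callosum of mice fed with it loses its myelin while microglia and astrocytes react. When the toxin is withdrawn, oligodendrocyte precursors mature and form new myelin. Trophic factors act on these steps: some drive precursors to divide or mature, some protect oligodendrocytes, and some maintain microglia. Most of them bind receptor tyrosine kinases, Cntf, Lif and Osm share the signalling receptor gp130, and the product of Inhba is a subunit of activin A, a relative of TGF-beta.

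The promoter sequences of Igf1, Cntf and Csf1 are shown because these are the members whose 6 regular diet arrays all lay above every untreated array. They are from RefSeq on build GRCm38.p6, from 250 bases before to 50 bases after the annotated start, on the strand of the gene. Capitals mark matches to the AP-1 motif TGANTCA. The STAT motif TTCNNNGAA, bound by factors that gp130 receptors activate, was also searched on both strands and had no match in the 3 windows, so no matches overlapped.
Igf1, chr10:87860861-87861160, plus strand: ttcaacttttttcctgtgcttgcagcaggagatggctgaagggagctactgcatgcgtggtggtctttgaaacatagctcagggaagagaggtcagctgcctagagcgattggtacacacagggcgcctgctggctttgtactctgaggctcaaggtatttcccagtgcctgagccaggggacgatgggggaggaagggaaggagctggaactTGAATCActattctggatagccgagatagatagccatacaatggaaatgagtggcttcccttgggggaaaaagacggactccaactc
Cntf, chr19:12765583-12765882, minus strand: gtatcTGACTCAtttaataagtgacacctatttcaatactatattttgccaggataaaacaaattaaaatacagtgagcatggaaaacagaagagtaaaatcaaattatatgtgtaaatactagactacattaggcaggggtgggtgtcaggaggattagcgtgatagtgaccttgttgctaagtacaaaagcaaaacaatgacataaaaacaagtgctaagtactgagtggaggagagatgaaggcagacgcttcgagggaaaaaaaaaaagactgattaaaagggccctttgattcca
Csf1, chr3:107760420-107760719, minus strand: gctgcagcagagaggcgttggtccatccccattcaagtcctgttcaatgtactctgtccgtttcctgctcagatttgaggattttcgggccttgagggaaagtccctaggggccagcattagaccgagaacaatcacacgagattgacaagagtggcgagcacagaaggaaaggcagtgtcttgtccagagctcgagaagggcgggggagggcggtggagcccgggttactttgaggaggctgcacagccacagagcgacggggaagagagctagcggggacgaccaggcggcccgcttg
The Igf1 and Cntf windows each held 1 AP-1 match and the Csf1 window held none. Of 32851 promoters of this length, 7.81% held the AP-1 motif and 8.30% the STAT motif. The windows differed in base composition, with 52.3% G and C in Igf1, 36.3% in Cntf and 58.7% in Csf1. A match in a window describes its letters only.

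Values below are log2 levels of the processed table, scaled to the 75th percentile of each array and given relative to the median of the 3 untreated arrays, so that 0 is that median and 1 is a doubling. A probe counted as measured on an array if it was well above background there. Of the 14 probes, 9 were well above background on all 16 arrays. The scanner files are recorded under other samples than the columns they match for 14 of the 16 columns, 13 of them in another group. Groups follow the column names, and for the differences printed here of the probe that stands for each member, values with the files taken as recorded are given where the direction turns. They are not given for second probes, receptors or other lists. Between 57.4% and 72.2% of probes were well above background on an array, and the 75th percentile of the signal ranged from 161.9 to 366.1. As a check of the tissue label, 11 oligodendrocyte and myelin genes, such as Mbp, were well above background on every untreated array. So were all 12 microglia, 8 astrocyte and 8 neuron markers, and also all 8 markers of vessels, 7 of meninges and 7 of choroid plexus and ependyma, so detection alone does not single out this tissue.

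None of the 8 members that could be tested passed the threshold of an adjusted p under 0.05 with at least a 2-fold change in any of the 5 comparisons. The fits were made with limma, with Benjamini-Hochberg adjustment over all tested probes. Among 20399 genes, 0.211% passed for 2 weeks and 0.181% for 4 weeks of CPZ against untreated, and 0.0147% for 4 weeks against 2 weeks. Of 20603 genes, 0.864% passed for regular diet against untreated and 0.00485% for regular diet against 4 weeks of CPZ. At an unadjusted p under 0.05 the members numbered 3 of 8 at 2 weeks, where 9.55% of all genes reached it, and 2 of 8 at 4 weeks, where 10% did. They numbered 4 of 8 for regular diet against untreated, beside 10.5% of all genes. They numbered 0 of 8 for 4 weeks against 2 weeks, beside 11.3%, and 1 of 8 for regular diet against 4 weeks, beside 26.6%. As members were chosen with earlier results of these data known, these shares do not test the list. The median log2 fold change against untreated over the 8 members was 0.37 at 2 weeks, 0.31 at 4 weeks and 0.43 on regular diet, where that of all genes was 0.05, -0.04 and -0.01. All 3 medians include Fgf2, which passed the filter of the 10-array fit through its high group, and at 2 weeks and on regular diet it is 1 of the 2 middle members. Over the 7 members measured on every array the medians were 0.0078, 0.16 and 0.60, beside -0.02, 0.02 and -0.08 for all genes kept by that stricter filter.

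**Figure D1:**
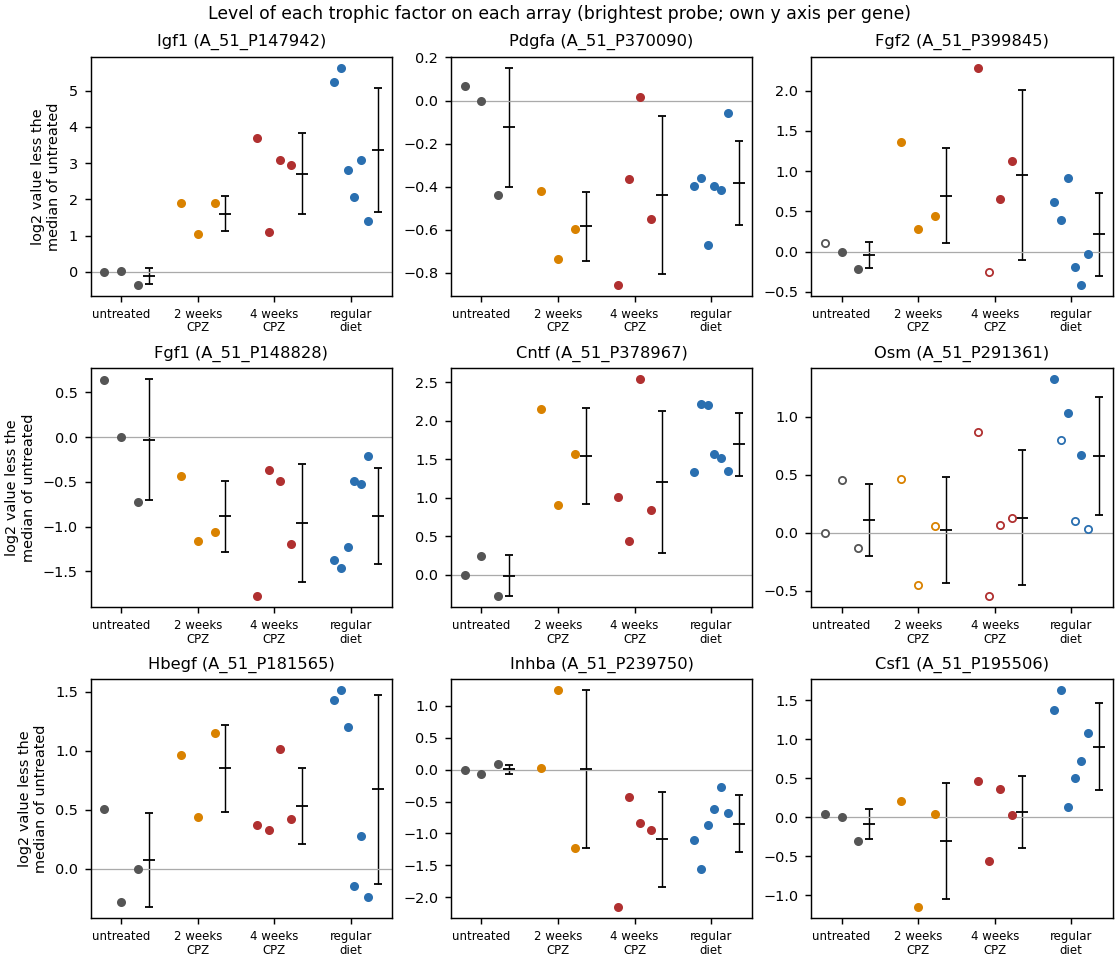
Level of 9 trophic factors on each of the 16 arrays (log2, relative to the median of the untreated arrays; each gene has its own y axis). Points are arrays in order of replicate number, open points are arrays where the probe was not well above background, and bars beside them give the mean and SD of the group; Igf1 and Cntf lie above every untreated array in all 3 other groups.

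Among the growth factors of the oligodendrocyte lineage, Igf1 had the largest fold changes against untreated. Its product, insulin-like growth factor 1, promotes survival and myelin formation of oligodendrocytes and is made by reactive microglia and astrocytes. On probe A_51_P147942, spotted 10 times on each array and well above background on all 16, the untreated arrays read 0.00, 0.02 and -0.37. The arrays of 2 weeks of CPZ read 1.89, 1.04 and 1.90, and those of 4 weeks read 3.70, 1.11, 3.10 and 2.94. Every CPZ array lay above every untreated array, and the array lowest at 4 weeks, replicate 2, lay within the range of the 2-week arrays. The regular diet arrays ran from 1.39 through a median of 2.94 to 5.63, all above the untreated arrays, and replicates 1 and 2, at 5.24 and 5.63, lay above every array of 4 weeks.

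The mean of Igf1 was 3.31-fold higher than untreated at 2 weeks (log2 fold change 1.73, SE 0.58, adjusted p = 0.303). At 4 weeks it was 7.10-fold higher (2.83, SE 0.54, adjusted p = 0.0840), and on regular diet 11.2-fold higher (3.49, SE 0.82, adjusted p = 0.0690). In order of mean level, regular diet stood above 4 weeks by 0.66 (adjusted p = 0.595) and 4 weeks above 2 weeks by 1.10 (adjusted p = 0.476), so these neighbouring groups did not differ beyond their spread. Leaving out 1 array gave 0.12 (without 4-week replicate 2) to 1.05 for the first difference and 0.77 to 1.63 for the second. By the matched scanner files, arrays sat on 4 slides that each held several groups. With the files as recorded, slide 1 held all 3 untreated arrays and slide 4 only regular diet arrays, so the values by slide here and below rest on the match. With the slide as a fixed block the change at 4 weeks was 3.40 with an adjusted p of 0.0398, which passes the threshold. Within slides it was 3.08 on slide 2 and 4.06 on slide 3, and the difference of regular diet from untreated was 2.07, 3.49 and 4.53 on slides 1, 2 and 3. Without replicate 2 of 4 weeks the 4-week change was 3.36 (adjusted p = 0.0116), and without replicate 6 of regular diet that group's change was 3.88 (adjusted p = 0.0360). Leaving out replicate 1 or replicate 2 of regular diet gave 3.11 (adjusted p = 0.122) and 3.04 (adjusted p = 0.0957). Over all arrays left out in turn, the adjusted p of Igf1 ran from 0.0116 to 0.357 at 4 weeks, the highest without untreated replicate 2, and from 0.0360 to 0.285 on regular diet, the highest without untreated replicate 3. It was 0.267 and 0.0790 with the replicate number as a block, where the regular diet change was 4.33, and 0.226 and 0.184 with the methods' test. With the scanner files taken as recorded, the Igf1 changes were 0.92, 0.84 and 1.55 and the difference of 4 weeks from 2 weeks turned to -0.08, and with normexp correction and quantile normalization they were 1.08, 2.02 and 2.66.

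The second Igf1 probe, A_52_P351116, gave smaller differences. It read -1.38, 0.00 and 0.03 on the untreated arrays, where replicate 1 was not well above background, and -0.31, 0.32 and -0.08 at 2 weeks. At 4 weeks it read 1.20, 0.20, 1.17 and 0.72, and on regular diet it ran from 0.25 to 3.58 with a median of 1.06. The arrays of 4 weeks and of regular diet lay above all untreated arrays on this probe and those of 2 weeks did not. Its log2 fold changes were 0.43, 1.27 and 2.04 at 2 weeks, at 4 weeks and on regular diet, with adjusted p of 0.893, 0.251 and 0.273.

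Markers of microglia followed Igf1 in part. Igf1 read 1.04 on 2-week replicate 2 and 0.00 on untreated replicate 1, but the microglia means of these arrays were 0.22 and 0.88. The mean of the 12 microglia markers, all well above background on every array, lay between -0.12 and 0.88 on the untreated arrays, 0.22 and 1.40 at 2 weeks, 0.99 and 2.13 at 4 weeks, and 1.17 and 4.35 on regular diet. The arrays of regular diet with the highest Igf1, replicates 1 and 2, also had the highest microglia means, 4.04 and 4.35, where the other 4 lay between 1.17 and 1.47. The part of microglia in the Igf1 result was not tested. In bulk tissue, more cells of a type and more RNA per cell cannot be told apart, here or for any member below. None of the 12 microglia markers passed the threshold. At an unadjusted p under 0.05, 5 were higher at 2 weeks, 8 at 4 weeks and 9 on regular diet. By fold change alone, 3 of the 12 were lower at 2 weeks, down to -0.60, and 0 at 4 weeks and on regular diet.

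**Figure D2:**
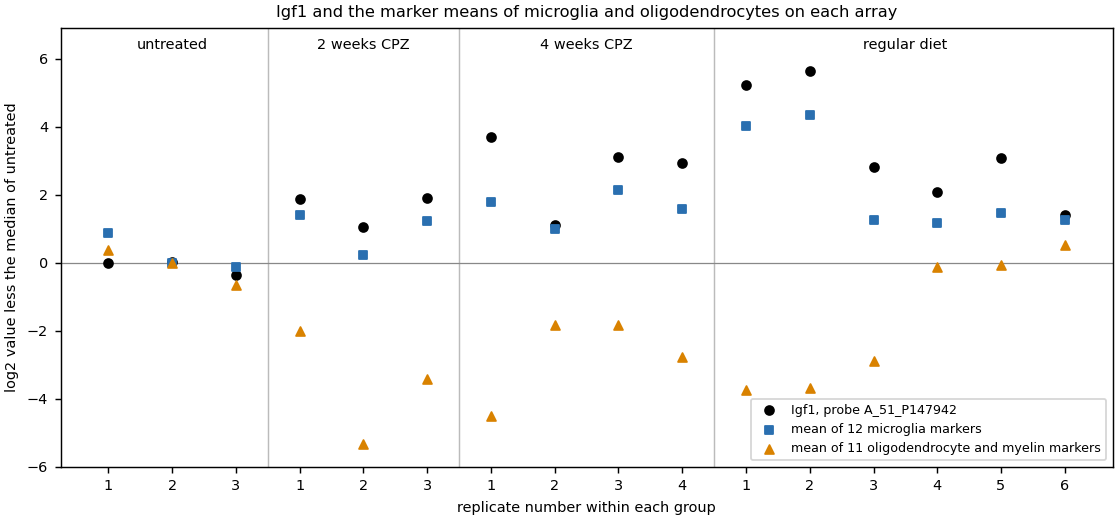
Igf1 (circles), the mean of 12 microglia markers (squares) and the mean of 11 oligodendrocyte and myelin markers (triangles) on each array (y axis, log2 relative to the median of the untreated arrays), by group and replicate number (x axis). Igf1 and the microglia mean are both highest on replicates 1 and 2 of regular diet, and the oligodendrocyte mean runs from -5.34 at 2 weeks to 0.53 on regular diet.

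Pdgfa encodes platelet-derived growth factor A, the main mitogen of oligodendrocyte precursors. Both of its probes were well above background on all arrays. On probe A_51_P370090 the untreated arrays read 0.07, 0.00 and -0.44, the 2-week arrays -0.42, -0.74 and -0.60, and the 4-week arrays -0.86, -0.37, 0.02 and -0.55. The regular diet arrays ran from -0.67 to -0.06 with a median of -0.40. The groups overlapped on this probe, and on A_51_P370099 the 3 arrays of 2 weeks lay below every untreated array. The log2 fold changes were -0.46 at 2 weeks (SE 0.25, adjusted p = 0.718), -0.31 at 4 weeks (SE 0.24, adjusted p = 0.773) and -0.26 on regular diet (SE 0.19, adjusted p = 0.605). The other probe gave -0.51, -0.36 and -0.30. Leaving out 1 array moved the values of the first probe over -0.62 to -0.36, -0.47 to -0.17 and -0.42 to -0.16. With the files as recorded, the 2-week and 4-week values of Pdgfa turned to 0.17 and 0.02.

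Fgf2 encodes basic fibroblast growth factor, which keeps precursors dividing and holds back their maturation. Its probes lay close to background. A_51_P399845 was not well above background on untreated replicate 1 and 4-week replicate 2, and A_52_P376768 was not on untreated replicates 1 and 2, so the untreated level is partly a background level. A_51_P399845 read 0.10, 0.00 and -0.22 on the untreated arrays, 1.37, 0.28 and 0.44 at 2 weeks, and 2.28, -0.25, 0.65 and 1.13 at 4 weeks. On regular diet replicates 1, 2 and 3 read 0.62, 0.40 and 0.92, and replicates 4, 5 and 6 read -0.19, -0.42 and -0.04. The mean of the 11 oligodendrocyte and myelin markers was -3.73, -3.68 and -2.88 on replicates 1, 2 and 3 and between -0.13 and 0.53 on the other 3, and its part in the Fgf2 values was not tested. All 2-week arrays lay above every untreated array on both probes, and all 4-week arrays did on A_52_P376768 but not on A_51_P399845.

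The log2 fold change of Fgf2 was 0.73 at 2 weeks (SE 0.56, adjusted p = 0.890) and 0.99 at 4 weeks (SE 0.53, adjusted p = 0.609). On regular diet it was 0.25 above untreated (SE 0.44, adjusted p = 0.801) and -0.74 against 4 weeks (adjusted p = 0.268). Single arrays weighed on these values. They were 0.40 at 2 weeks without 2-week replicate 1 and 0.54 at 4 weeks without 4-week replicate 1. The difference of regular diet from 4 weeks was -0.29 without the latter. Leaving out 1 array moved the regular diet value against untreated over 0.11 to 0.38. Within slides 2, 3 and 4 the difference of regular diet from 4 weeks was -0.47, -2.18 and 0.48. The other probe gave 1.08, 1.14 and 0.70 against untreated, where only 1 of the 3 arrays measured it, so these differences are taken from what is largely a background level. With the files taken as recorded, the 2-week and 4-week values of Fgf2 turned to -0.30 and -0.50 and the difference of regular diet from 4 weeks turned to 0.83, and with normexp and quantile normalization the 3 values were 0.09, 0.31 and 0.02. The difference of 4 weeks from 2 weeks was 0.26 (adjusted p = 0.862) and 0.05 (adjusted p = 0.970) on the 2 probes. The first of these turned to -0.19 without 4-week replicate 1 and to -0.20 with the files as recorded.

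Fgf1, acidic fibroblast growth factor, binds all fibroblast growth factor receptors. Both probes were well above background on every array. A_51_P148828 read 0.64, 0.00 and -0.72 on the untreated arrays, -0.43, -1.16 and -1.07 at 2 weeks, and -1.78, -0.37, -0.49 and -1.20 at 4 weeks. On regular diet replicates 1, 2 and 3, the arrays with low myelin markers, read -1.37, -1.46 and -1.23, and replicates 4, 5 and 6 read -0.49, -0.52 and -0.21. The 2 sets did not overlap on this probe, but did on A_52_P538673, and the part of the myelin markers was not tested. Every group overlapped the untreated arrays, which themselves spread widely. The log2 fold changes were -0.86 (SE 0.45, adjusted p = 0.686), -0.93 (SE 0.42, adjusted p = 0.513) and -0.85 (SE 0.38, adjusted p = 0.460). Leaving out 1 array moved these over -1.20 to -0.52, -1.275 to -0.60 and -1.20 to -0.52. With normexp and quantile normalization the 2-week and 4-week values were -0.45 and -0.41. With array weights, a fit that stopped before convergence, the regular diet value of Fgf1 was -0.11. The other probe, A_52_P538673, disagreed at 4 weeks, with -0.997, -0.13 and -0.61 in the same order.

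**Figure D3:**
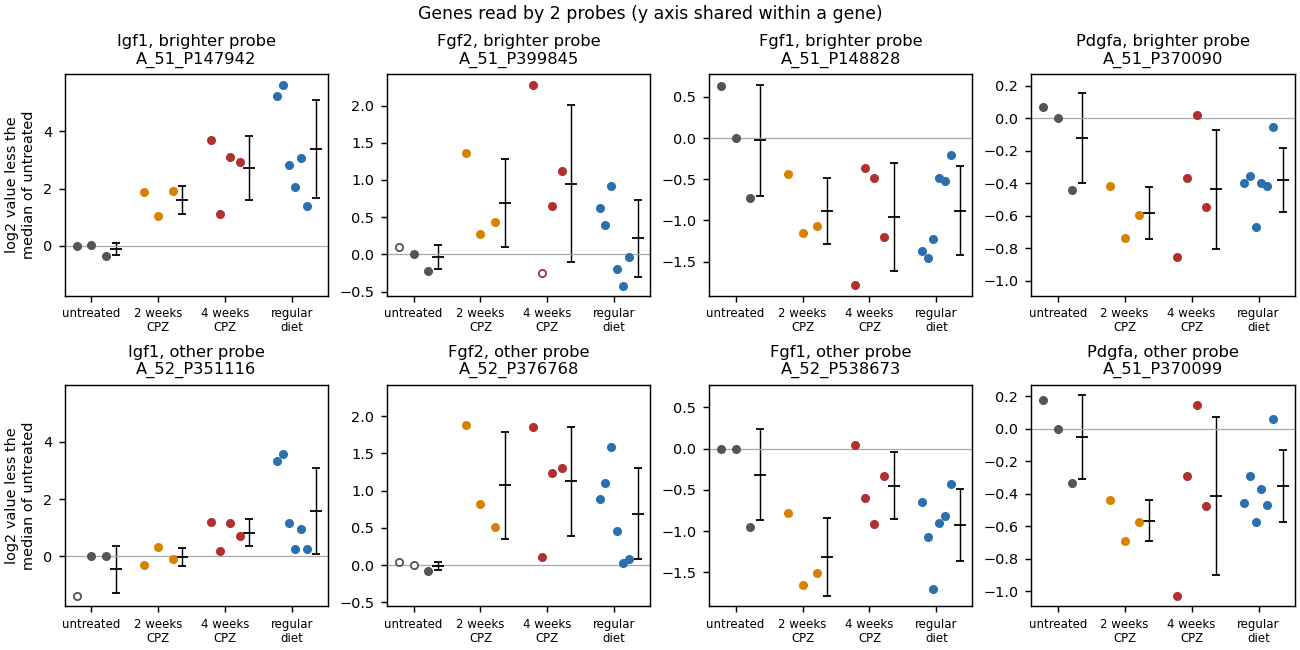
The 4 members read by 2 measured probes, with the brighter probe above and the other below (log2, relative to the median of the untreated arrays; y axis shared within a gene). Points are arrays, open points were not well above background, and bars give the mean and SD; at 2 weeks the log2 fold changes of the probes were -0.46 and -0.51 for Pdgfa, and 1.73 and 0.43 for Igf1.

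Of the gp130 cytokines, Cntf was the only one that could be tested. Ciliary neurotrophic factor is made by astrocytes in white matter and protects oligodendrocytes and neurons. Its probe, A_51_P378967, was well above background on all 16 arrays and read 0.00, 0.25 and -0.28 on the untreated arrays. It read 2.16, 0.91 and 1.57 at 2 weeks, and 1.01, 0.44, 2.54 and 0.84 at 4 weeks. The regular diet arrays ran from 1.33 through a median of 1.54 to 2.22. Every array of the 3 other groups lay above every untreated array, and the regular diet arrays were the tightest of these groups (SD 0.41, n = 6, against 0.92, n = 4, at 4 weeks).

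The mean of Cntf was 2.94-fold above untreated at 2 weeks (log2 fold change 1.55, SE 0.52, adjusted p = 0.304) and 2.33-fold at 4 weeks (1.22, SE 0.49, adjusted p = 0.419). On regular diet it was 3.27-fold above (1.71, SE 0.40, adjusted p = 0.0678). The value on regular diet stood 0.49 above that of 4 weeks (adjusted p = 0.408), and the change from 2 weeks to 4 weeks was -0.34 (adjusted p = 0.797). Leaving out 1 array moved these over 0.23 to 0.93 and -0.78 to -0.03, respectively. With the slide as a fixed block the regular diet change was 1.80 with an adjusted p of 0.0453, which passes the threshold. Within slides it was 1.57, 1.54 and 1.70 on slides 1, 2 and 3. The 4-week change was 2.30 and 1.29 on slides 2 and 3. The difference of regular diet from 4 weeks was -0.76, 0.41 and 1.56 on slides 2, 3 and 4. Without replicate 3 of 4 weeks the regular diet change stayed at 1.71 with an adjusted p of 0.0131. The 4-week change then fell to 0.77 (adjusted p = 0.385), under 2-fold. Over all arrays left out in turn, the adjusted p of Cntf on regular diet ran from 0.0131 to 0.311, the highest without untreated replicate 3. With the scanner files taken as recorded, the 4-week and regular diet values turned to -0.30 and -0.11. The mean of the 8 astrocyte markers lay between -0.38 and 0.53 on untreated arrays, 0.02 and 0.87 at 2 weeks, 0.28 and 1.10 at 4 weeks, and 0.57 and 0.77 on regular diet, and its part in the Cntf result was not tested. These markers went both ways, from -1.01 to 2.24 as log2 fold changes at 2 weeks. At an unadjusted p under 0.05, 4 were higher and 1 lower at 2 weeks, 4 and 0 at 4 weeks, and 4 and 0 on regular diet, and none passed the threshold.

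Osm encodes oncostatin M, a cytokine of microglia and infiltrating myeloid cells. Neither of its probes was well above background on any array of untreated mice, of 2 weeks or of 4 weeks of CPZ. A_51_P291361 was well above background on 3 of the 6 regular diet arrays, replicates 1, 3 and 5, where it read 1.32, 1.03 and 0.67, and A_52_P348614 was on none. Replicates 4 and 6 read 0.10 and 0.03, within the range of the untreated arrays (-0.13 to 0.46), and replicate 2 read 0.80. The mean of the other probe was -0.34 on regular diet and -0.16 on the untreated arrays. Osm was therefore not tested, and no fold is given.

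Among the other trophic factors, Hbegf encodes heparin-binding EGF-like growth factor, a ligand of Egfr and Erbb4 that acts on astrocytes and precursors. Its probe, A_51_P181565, was well above background on all arrays and read 0.50, -0.29 and 0.00 on the untreated arrays, 0.96, 0.44 and 1.15 at 2 weeks, and 0.37, 0.32, 1.02 and 0.42 at 4 weeks. The arrays of regular diet ran from -0.24 to 1.51 with a median of 0.74, replicates 1, 2 and 3 lying between 1.20 and 1.51 and the other 3 between -0.24 and 0.28. All groups overlapped the untreated arrays. The log2 fold changes were 0.78 at 2 weeks (SE 0.29, adjusted p = 0.400), 0.46 at 4 weeks (SE 0.27, adjusted p = 0.671) and 0.60 on regular diet (SE 0.39, adjusted p = 0.573). With the files as recorded, they turned to -0.67, -0.48 and -0.17. Within slides 1, 2 and 3 the regular diet value was -0.65, 0.92 and 0.85. Leaving out 1 array moved the 4-week value over 0.28 to 0.68, and it was 0.30 without 4-week replicate 3. The 3 regular diet arrays with high Hbegf were again those with low oligodendrocyte and myelin markers, whose part in the Hbegf values was not tested.

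Inhba encodes the beta A subunit of activin A, a factor released by microglia that promotes maturation of oligodendrocytes. Its probe, A_51_P239750, was well above background on all arrays. The untreated arrays agreed closely at 0.00, -0.07 and 0.08, while those of 2 weeks read 0.02, 1.25 and -1.23, the widest spread of the 8 members at that time (SD 1.24, n = 3). The 4-week arrays read -2.16, -0.43, -0.83 and -0.94 and the regular diet arrays -1.10, -1.55 and -0.86 on replicates 1, 2 and 3 and -0.62, -0.26 and -0.68 on replicates 4, 5 and 6. The first 3, with low myelin markers, lay below the other 3, and the part of these markers in the Inhba values was not tested. Not all members separated these sets of arrays. Pdgfa, Cntf, Csf1 and the probe that stands for Igf1 overlapped between them, though the second Igf1 probe did not. The share of all genes that separate these sets was not counted, so such splits, here and for other members and receptors, are descriptions. For Inhba, all arrays of 4 weeks and of regular diet lay below every untreated array. The log2 fold change was 0.01 at 2 weeks (SE 0.60, adjusted p = 0.998), -1.10 at 4 weeks (SE 0.56, adjusted p = 0.589) and -0.85 on regular diet (SE 0.46, adjusted p = 0.519). The 2-week value had no settled direction: it was -0.61 without 2-week replicate 2, 0.63 without 2-week replicate 3, -0.22 with the slide as a fixed block and -1.26 with array weights. With the slide as a fixed block the 4-week value was -1.76. Between 4 weeks and 2 weeks the difference was -1.10 (adjusted p = 0.481), which ran from -1.73 to -0.49 without 2-week replicate 3 or 2 and turned to 0.26 with array weights. Within slides 2 and 3 the 4-week change was -0.76 and -2.24. With the files as recorded, the 2-week value turned to -0.31, the 4-week value was -0.04 and the difference of 4 weeks from 2 weeks turned to 0.28.

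Csf1 encodes the growth factor on which microglia depend for survival. Its probe, A_51_P195506, spotted 10 times on each array and well above background on all, read 0.04, 0.00 and -0.30 on the untreated arrays. It read 0.21, -1.15 and 0.04 at 2 weeks and 0.46, -0.56, 0.36 and 0.03 at 4 weeks, and both CPZ groups overlapped the untreated arrays. On regular diet it ran from 0.13 through a median of 0.89 to 1.63, above every untreated array, and 5 of the 6 arrays lay above every array of 4 weeks. The highest were replicates 1 and 2, at 1.37 and 1.63, which also had the highest means of the 12 microglia markers (4.04 and 4.35, against 1.17 to 1.47 on the other 4). The other 4 arrays read 0.13, 0.50, 0.72 and 1.07, and the part of microglia in the Csf1 values was not tested. The log2 fold changes against untreated were -0.21 at 2 weeks (SE 0.39, adjusted p = 0.915), 0.16 at 4 weeks (SE 0.36, adjusted p = 0.924) and 0.99 on regular diet (SE 0.36, adjusted p = 0.327). The 2-week value turned to 0.21 without 2-week replicate 2 and to 0.22 with array weights. Leaving out 1 array moved the 4-week value over 0.03 to 0.37. Against 4 weeks, regular diet was 1.78-fold higher (0.83, SE 0.33, adjusted p = 0.150), with a difference of 0.99, 0.58 and 0.40 on slides 2, 3 and 4, and of 0.62 to 0.99 with 1 array left out. With the files as recorded, the regular diet value against untreated turned to -0.05, the 2-week value to 0.54 and the difference of regular diet from 4 weeks to -0.47.

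**Figure D4:**
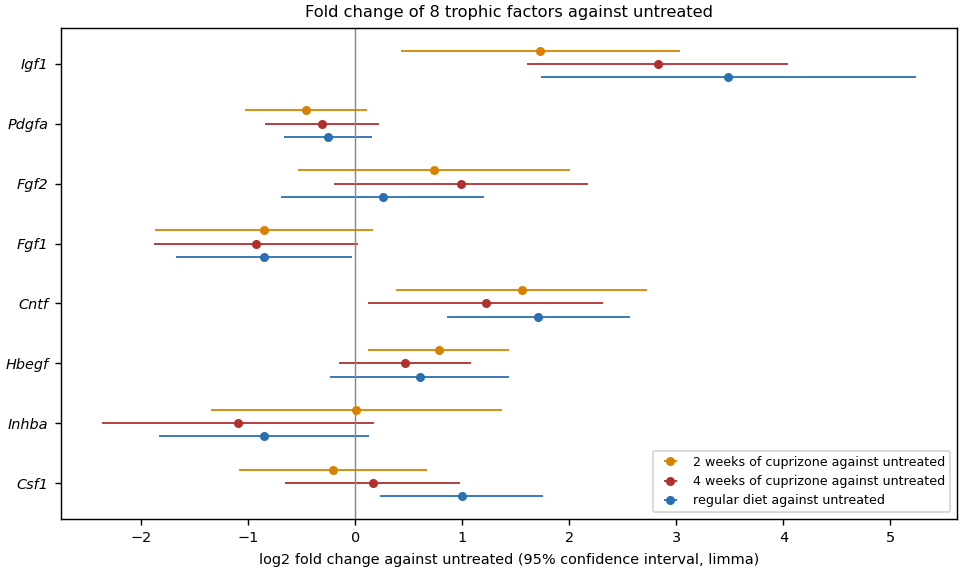
Log2 fold change of the 8 tested members against untreated (x axis) with 95% confidence intervals from limma, for 2 weeks of CPZ, 4 weeks of CPZ and regular diet. The intervals of Igf1 and Cntf lie above 0 in all 3 comparisons, and those of Pdgfa, Fgf2 and Inhba include 0 in all 3; no adjusted p was under 0.05.

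Counting arrays that did not overlap, 3 of the 8 members lay above every untreated array at 2 weeks (Igf1, Cntf and Fgf2), where 8.2% of all genes did, and none lay below, where 8.6% did. The Fgf2 probe entered the 10-array fit only because all 2-week arrays were well above background, and it was measured on 2 of the 3 untreated arrays, so its place in this count is a description. At 4 weeks 2 members lay above (Igf1 and Cntf), beside 5.31% of genes, and 1 below (Inhba), beside 4.41%. On regular diet 3 lay above (Igf1, Cntf and Csf1), beside 5.08%, and 1 below (Inhba), beside 3.41%. The 3 comparisons share the untreated arrays, so these counts are not independent of each other. They also do not test the list, whose members were chosen with earlier results of these data known.

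All 15 receptors of these factors were well above background on every array, and none passed the threshold in any comparison. Osmr, a receptor chain that pairs with gp130 to bind oncostatin M, was furthest from untreated. It read 0.00, 0.04 and -0.61 on the untreated arrays, 2.90, 1.90 and 2.92 at 2 weeks, and 3.14, 1.02, 3.34 and 2.42 at 4 weeks, and all these CPZ arrays and those of regular diet lay above the untreated arrays. On regular diet replicates 1, 2 and 3, with low myelin markers, read 3.84, 4.01 and 3.43, and replicates 4, 5 and 6 read 1.37, 1.79 and 1.47, so the mean of that group falls between 2 sets of arrays. The part of the myelin markers in the Osmr values was not tested. Its log2 fold change was 2.76 at 2 weeks (SE 0.58, adjusted p = 0.0928), 2.67 at 4 weeks (SE 0.54, adjusted p = 0.0904) and 2.84 on regular diet (SE 0.65, adjusted p = 0.0605). Its ligand Osm was at background on these CPZ arrays. The chains that gp130 cytokines share lay closer to untreated. Il6st, which encodes gp130, was 0.27, -0.06 and 0.33 and Lifr 0.20, -0.21 and -0.23 as log2 fold changes at 2 weeks, at 4 weeks and on regular diet. Cntfr, the chain that binds Cntf, was -0.92, -0.51 and -1.11, with adjusted p from 0.268 to 0.805. On regular diet the same sets of arrays separated, with Cntfr at -1.36, -1.16 and -1.18 on replicates 1, 2 and 3 and -0.68, -0.53 and -0.24 on replicates 4, 5 and 6, and Lifr between -0.84 and -0.49 on the first 3 and -0.42 and 0.29 on the others.

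The receptors of the fibroblast growth factors differed from each other in sign. Fgfr1 was 1.36, 0.92 and 0.39 and Fgfr2, the form prominent on mature oligodendrocytes, was -1.38, -1.01 and -0.94 as log2 fold changes at 2 weeks, at 4 weeks and on regular diet. All arrays of both CPZ groups lay above untreated for Fgfr1 and below for Fgfr2, with adjusted p of 0.400 and 0.134 at 2 weeks. On regular diet Fgfr2 read -2.12, -1.59 and -1.63 on replicates 1, 2 and 3 and -0.27, -0.58 and 0.24 on replicates 4, 5 and 6. Fgfr1 read 0.77, 0.48 and 0.86 on the first 3 and -0.15, 0.06 and 0.18 on the others, so both means lie between sets of arrays that did not overlap. Fgfr3 was -0.13, -0.52 and -0.31. The mean of 11 oligodendrocyte and myelin markers moved with Fgfr2: it lay between -0.66 and 0.38 on the untreated arrays, -5.34 and -2.01 at 2 weeks, -4.52 and -1.83 at 4 weeks, and -3.73 and 0.53 on regular diet. Its part in the Fgfr2 values was not tested. At 2 weeks only 9 of the 11 markers were well above background on every array, so the 2-week means include values that were not. None of these 11 markers passed the threshold, and 11 at 2 weeks, 10 at 4 weeks and 0 on regular diet were lower at an unadjusted p under 0.05.

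Csf1r, the receptor of Csf1 and itself a microglia marker, was 0.43, 0.68 and 1.52 at 2 weeks, at 4 weeks and on regular diet, with an adjusted p of 0.401 in the last. On regular diet replicates 1 and 2 read 3.20 and 3.57 and the other 4 arrays between 0.60 and 0.96. Igf1r was 0.27, 0.17 and -0.06, and Pdgfra, the receptor of Pdgfa on precursors, was -0.45, -0.23 and 0.05. Egfr was 0.37, 0.32 and 0.06 and Erbb4 was -0.07, -0.26 and -0.21, and on regular diet both also separated replicates 1, 2 and 3 from the others, by smaller differences. Of the activin receptors, Acvr2b was -0.89, -0.72 and -0.60, Acvr2a 0.49, 0.58 and -0.03, and Acvr1b -0.14, 0.47 and -0.31. Il6st, Fgfr3, Igf1r, Pdgfra and these activin receptors overlapped between replicates 1, 2 and 3 of regular diet and the others. Counted at an unadjusted p under 0.05, 2 of the 15 receptors were higher and 2 lower at 2 weeks, 1 and 2 at 4 weeks, and 2 and 2 on regular diet. Of all genes, 923 were higher and 1025 lower of 20399 at 2 weeks, 1061 and 979 at 4 weeks, and 1299 and 865 of 20603 on regular diet.

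**Figure D5:**
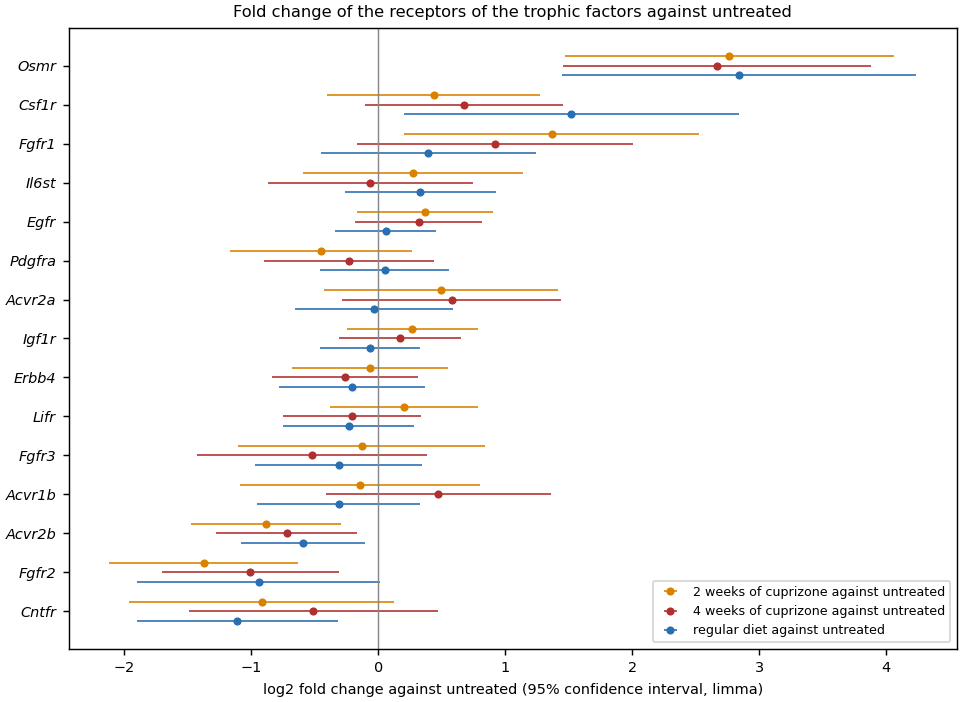
Log2 fold change of the 15 receptors against untreated (x axis) with 95% confidence intervals from limma, ordered by the value on regular diet. Osmr lies between 2.67 and 2.84 in all 3 comparisons, and no adjusted p was under 0.05.

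The other genes of these pathways were counted as lists, and none of their members passed the threshold. Of 9 tested binding proteins and inhibitors, which hold ligands such as insulin-like growth factors and activin away from their receptors, 1 was higher at an unadjusted p under 0.05 at 2 weeks, 3 at 4 weeks and 1 on regular diet, and none was lower. Their median log2 fold change was 0.47, 0.31 and 0.07. Of 15 tested further ligands of the same families, 1, 2 and 3 were higher and 1, 1 and 0 lower, with medians of 0.17, 0.17 and -0.09. Of 16 signal transducers and feedback genes, 3, 3 and 2 were higher and 1, 1 and 1 lower, with medians of 0.31, 0.10 and 0.03. Of 9 neurotrophins and other trophic factors, 1, 2 and 2 were higher and 0, 0 and 2 lower, with medians of 0.05, 0.25 and -0.08. Markers of precursors had medians of -0.32, -0.66 and 0.06, those of neurons -0.32, 0.30 and -0.41, those of vessels -0.10, -0.14 and -0.38, those of meninges 0.42, 0.03 and -0.11, and those of choroid plexus and ependyma 0.11, 0.32 and -0.0044. The mean of the choroid plexus markers ran from -0.60 to 1.09 on the untreated arrays, -1.33 to 1.45 at 2 weeks, -2.38 to 2.57 at 4 weeks and -2.18 to 2.12 on regular diet.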

How the data were processed

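Corpus callosum RNA (100 ng, RNA integrity number above 8) was labelled with Cy3. The authors deposited spot intensities from Agilent Feature Extraction (version 11.0.1.1 in the submitters' processing notes, 10.7 in the methods), background-subtracted but not scaled between arrays, with flags for spots well above background. They also deposited log2 values from GeneSpring GX 10.0, which were the main values. Setting them against the scanner intensities showed a log2 scale, 75th-percentile scaling and a baseline at the probe's median over the 3 untreated columns, and left none of scale, centring and direction unknown. Column medians ran from -0.17 to 0.04. Each column matched 1 scanner file (lowest r 0.9974, next best 0.767 or less), which supplied flags and slides.

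Probe accessions were matched to RefSeq names on GRCm38.p6, for 27459 of 41153 probes (66.7%); a probe without a name counted as 1 gene. Tested probes had to be well above background throughout at least 1 group of a fit: 27499 probes on the 10 arrays of untreated mice and CPZ, and 27779 on all 16 arrays for the regular diet comparisons. A gene is given by its brightest such probe. Log2 values were fitted with limma 3.58.1 in R 4.3.3 with no covariates, and scripts were tested on simulated data. The number of arrays limits the precision. All member probes and all receptors are named; other pathway genes were to be named only if called, and none was. Members and lists were chosen with earlier results of these data known. Alternatives were other scaling, normexp with quantile normalization, filters, slide and replicate blocks, array weights, the methods' test, the recorded scanner assignment, other probes, and leaving out each array.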

Additional observations from a re-analysis of the deposited data

Results flagged for a closer look

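Of 28 groups of 4 or 6 arrays examined, 1 held an array apart from the rest. Replicate 3 of 4 weeks of CPZ had the highest Hbegf value, 1.02 on the log2 scale against 0.32 to 0.42 on the other 3 arrays, and its gap to the nearest array was 0.861 of the range of the group. Chance alone marks about 1 in 20 groups.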

How the results depend on the processing

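The count of members called was 0 in all 5 comparisons and stayed 0 under every alternative for 4 weeks against 2 weeks and for regular diet against 4 weeks. Elsewhere it was above 0 under some. With array weights, a fit that stopped before convergence, it was 4 at 2 weeks (Igf1, Hbegf, Inhba and Cntf), 2 at 4 weeks (Igf1 and Fgf2) and 2 on regular diet (Igf1 and Cntf), and the 2-week value of Inhba turned to -1.26 (adjusted p = 0.0226). With the slide as a fixed or a random block it was 1 at 4 weeks in both (Igf1), and 1 (Cntf) and 2 (Igf1 and Cntf) on regular diet. On regular diet it was 2 with median scaling (Igf1 and Cntf) and 1 with only the compared groups in the fit (Cntf). Leaving out 1 array gave 0 to 1 at 4 weeks, where the call was Igf1 without 4-week replicate 2. It gave 0 to 1 on regular diet, where the calls were Cntf without 4-week replicate 3 and Igf1 without regular diet replicate 6. The cause was not tested. Deviations of arrays of the same replicate number ran opposite between untreated and 4-week arrays (correlations -0.80, -0.74 and -0.75). In the other pairs of groups the correlations ran from -0.32 to 0.34. With the replicate block 0 members were called in each comparison. Over all genes the counts for 2 weeks, 4 weeks, 4 against 2 weeks, regular diet and regular diet against 4 weeks were 43, 37, 3, 178 and 1. They were 0, 0, 0, 19 and 0 with the replicate block, 0, 0, 0, 8 and 2 with the methods' test, 0 in all with the recorded scanner assignment, 253, 325, 4, 264 and 7 with the slide as a random block, 106, 394, 0, 208 and 0 with it as a fixed block, 25, 35, 3, 253 and 5 with median scaling, and 1372, 1464, 2118, 840 and 1422 with array weights. Leaving out 1 array moved them over 1 to 61, 0 to 143, 0 to 49, 4 to 195 and 0 to 1424. The normexp setting used median spot signals. The methods' test had both regular diet times in 1 group, unlike the study, so its counts are not those of the study. Signal over background limits what can be said of Osm and of the untreated level of Fgf2.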
